A study of Mus musculus with 8 samples.

Results

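The enteroendocrine lineage transcription factors were followed here through 9 genes chosen by name: *Neurog3*, *Neurod1*, *Pax4*, *Insm1*, *Nkx2-2*, *Isl1*, *Pax6*, *Rfx6* and *Lmx1a*. All 9 are among the 55114 genes counted, and all 9 are among the 16109 genes that passed the filter on low counts. Their RNA was measured in bulk intestinal crypts from 4 *Mex3a*-/- mice (KO) and 4 littermate controls (Ctrl, called wild type in the series' design), all C57BL/6 and 8 weeks old. The KO is constitutive and, per the study's description of the mice, lacks exon 1 and part of exon 2 of *Mex3a*, which encodes an RNA-binding protein. Crypts were shaken off the intestine after EDTA and taken whole, so every crypt cell type contributed RNA. The segment of intestine and the sex of the mice are not in the labels.

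Enteroendocrine cells are the rare hormone-secreting cells of the gut epithelium. They arise from secretory progenitors in the crypt once these switch on *Neurog3*, a basic helix-loop-helix factor that is needed for the lineage and is expressed only briefly. *Neurog3* is followed by *Neurod1*, *Pax4*, *Insm1* and *Nkx2-2* in the differentiating cell, and factors such as *Isl1*, *Pax6*, *Rfx6* and *Lmx1a* take part in the choice and upkeep of the hormones that the mature cell makes.

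MEX3A binds RNA through a short bipartite sequence, known as the MEX3A recognition element, which the study followed in the 3'UTR of a target. The element was searched on the sense strand of each gene's 3'UTR, taken from its longest coding transcript (GENCODE M21, GRCm38), with overlapping matches counted. One match is shown for each of the 6 factors that hold it, because the gene deleted in these mice encodes the protein that the element is named for. Capitals mark both 4-base parts of the element, lower case inside marks the gap between them, and 5 flanking bases stand on each side. In *Neurod1*, *Insm1*, *Pax6* and *Lmx1a* a match without a gap was present and is the one shown, and in *Isl1* and *Nkx2-2* the match with the shortest gap is given.
Neurod1: gtacaGTAGTTTAaataa
Insm1: tttctTTAGTATAgccac
Pax6: tgttcATAGTTTAtggac
Lmx1a: attgcATAGTTTAatgtt
Isl1: aacgtAGAGgaTTTAtattc
Nkx2-2: agaggATAGaacTCTAagccg
The elements themselves, without their flanks, lie at chr2:79452847-79452854 (minus strand, *Neurod1*), chr2:146224402-146224409 (plus strand, *Insm1*), chr2:105696775-105696782 (plus strand, *Pax6*), chr1:167846949-167846956 (plus strand, *Lmx1a*), chr13:116299135-116299144 (minus strand, *Isl1*) and chr2:147183748-147183758 (minus strand, *Nkx2-2*). *Pax6* and *Lmx1a* share the same 8 letters.

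The number of matches ran from 8 in the 1443 bases of the *Neurod1* 3'UTR through 7 in *Insm1* (1189 bases), 6 in *Isl1* (1199 bases), 5 in *Pax6* (727 bases) and 4 in *Lmx1a* (1980 bases) to 3 in *Nkx2-2* (912 bases). *Neurog3* (656 bases), *Rfx6* (626 bases) and *Pax4* (44 bases) held none. Per kb, *Pax6* came first with 6.88 matches, before *Insm1* with 5.89 and *Neurod1* with 5.54. The window of *Pax4* is very short. The 9 3'UTRs together held 33 matches, or 3.76 per kb, beside 2.74 per kb over the 13004 tested genes with a 3'UTR, of which 74.2% held at least 1 (median length 1106 bases). A match is a string of letters and not a measured binding site.

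Factors of the *Neurog3* and *Neurod1* kind bind E-boxes, and the E-box CAGATG (read on the other strand as CATCTG) was searched in promoters of 300 bases from RefSeq (GRCm38.p6), most of them upstream of the gene's start. Of the 9 genes, 7 were in that table, with 8 promoters; *Insm1* and *Pax4* were not. A single promoter held the motif, that of *Nkx2-2*, and it is printed here with the motif in capitals, on the gene's strand (chr2:147186605-147186634, minus strand).
Nkx2-2 promoter: cccacaatttcaCATCTGcaaatactgtct
The motif lies at bases -220 to -215 from the RefSeq start used, chr2:147186402, which is 7841 bases inside the annotated gene. It was found in 17.2% of all 32851 promoters, on at least 1 promoter of 19.2% of the genes.

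Between 20324184 and 24726221 reads were counted on genes in each Ctrl mouse and between 23489180 and 30654105 in each KO mouse. *Mex3a* had 236 to 328 counts in the Ctrl and 6 to 28 in the KO libraries, so every library bore out its label (log2 fold change -4.43, SE 0.43, adjusted p = 0.0310, edgeR's quasi-likelihood test with Benjamini-Hochberg adjustment). With same-numbered mice paired as a block, its log2 fold change was -4.51 (SE 0.45), the adjusted p was 0.126 in the same test, and no gene passed. Replicates 1 and 2 of each genotype had *Ddx3y* reads and replicates 3 and 4 *Xist* reads, which gives 4 mice of each kind, 2 in each genotype. Of all tested genes, 8.38% had an unadjusted p under 0.05 in this test, 3.05% lower and 5.33% higher in KO, and 0.00621% an adjusted p under 0.05, which is *Mex3a* alone. The genotypes did not overlap in 4.05% of genes. Markers of other crypt cells and of the gut segment moved with genotype at the unadjusted level: 3 of 5 stem cell markers were lower in KO (summed level, in CPM, counts relative to the TMM-scaled library total, 4244 to 4977 in Ctrl and 3151 to 3919 in KO) and 4 of 4 ileal markers were higher (81.4 to 412 and 435 to 897 CPM). Among the other marker lists given here, at the same unadjusted level, 2 of 6 goblet markers were higher and 1 lower (summed level 4722 to 6428 CPM in Ctrl and 5636 to 8078 in KO), 2 of 5 enterocyte markers were higher (985 to 2135 and 1293 to 4299) and 1 of 6 immune markers was higher (14.0 to 25.6 and 20.7 to 42.1). Of 5 Paneth cell markers 1 was lower (14641 to 45165 and 7410 to 23342 CPM). No marker of the stroma (4.81 to 12.3 and 5.79 to 16.03 CPM), the proximal intestine (180.3 to 370 and 206 to 674) or the colon (19.4 to 20.6 and 17.1 to 25.3) had an unadjusted p under 0.05 in edgeR, and these 3 sums overlapped. Paired as a block, 4 goblet and 2 immune markers and 1 stromal marker were higher, 2 Paneth cell markers and 1 proximal marker were lower, no goblet marker was lower, and the stem, ileal and enterocyte counts were equal to those given. Since the segment sampled is not given and the ileal sums do not overlap, a difference in segment and an effect of genotype cannot be told apart in any value of KO against Ctrl. The part of these shifts in the values given next was not tested.

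None of the 9 factors differed between KO and Ctrl crypts at an adjusted p under 0.05 in edgeR, nor under any of 18 alternatives that included DESeq2 and limma, and the genotypes overlapped for all 9. The 9 estimates were all below 0, from -0.02 for *Neurog3* to -0.84 for *Pax4* on the log2 scale, with a median of -0.13, while the median over all 16109 genes was -0.02 and 53.9% of them lay below 0. *Pax4*, which acts early and favours some hormone fates over others, was the only factor with an unadjusted p under 0.05, so 1 of 9 stood beside the 8.38% of all genes. With same-numbered mice paired as a block it was 0 of 9, beside 11.3% of all genes. For the 8 others the 95% confidence interval stayed within a 2-fold change in either direction. In bulk crypts any difference in the number of enteroendocrine progenitors cannot be told apart from one in RNA per progenitor.

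**Figure D1:**
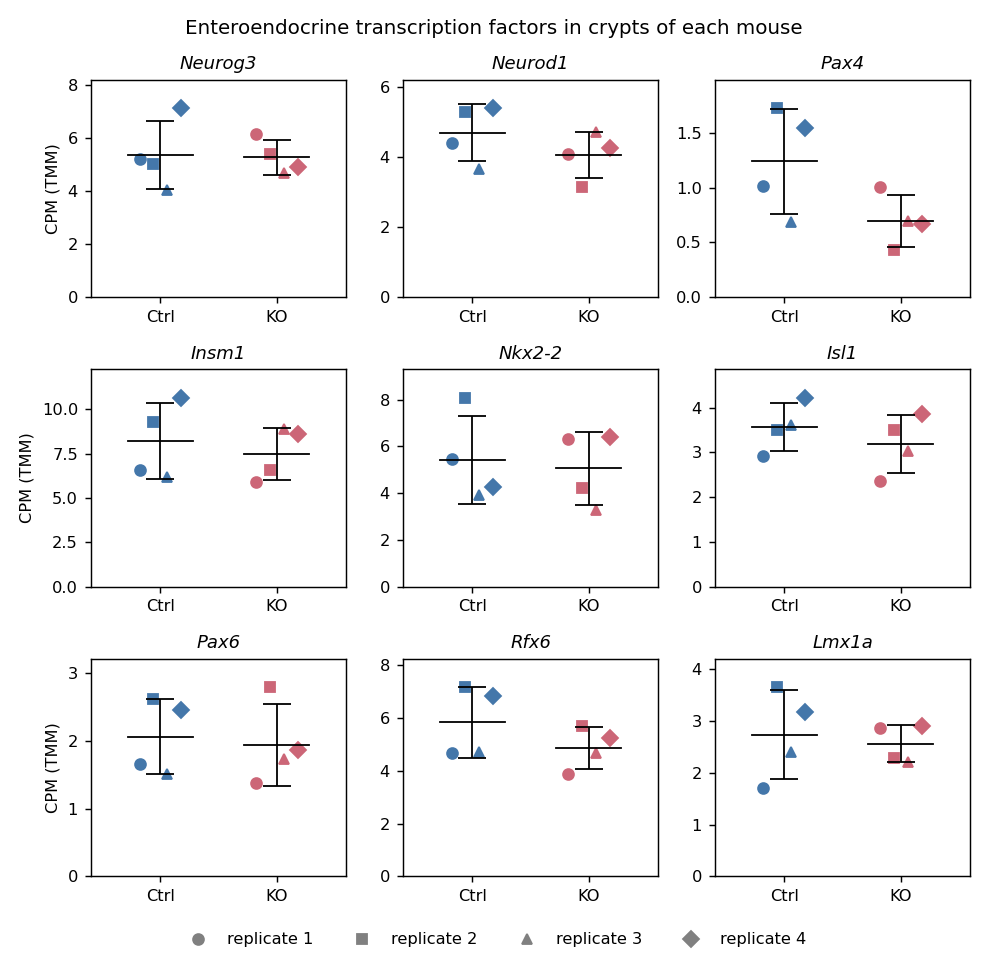
Level of each of the 9 transcription factors in each mouse, in CPM after TMM scaling (y axis, from 0, own scale in each panel), for Ctrl (blue) and KO (red). Symbols mark the replicate number, the long line is the mean and the bars are 1 SD over 4 mice; the genotypes overlap in every panel, and *Pax4* has 3 of its KO mice between 0.427 and 0.692, with the fourth at 1.01.

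*Neurog3*, the inducer of the lineage (ENSMUSG00000044312, chr10:62133090-62134763, plus strand, GRCm38), stood at 5.22, 5.05, 4.05 and 7.14 CPM in Ctrl mice 1 to 4 and at 6.17, 5.39, 4.67 and 4.92 CPM in KO mice 1 to 4. The KO values all fell inside the Ctrl range. The means were 5.37 ± 1.29 (SD, n = 4) and 5.29 ± 0.659 CPM (n = 4), a log2 fold change of -0.02 (SE 0.20, 95% interval -0.47 to 0.42, adjusted p = 0.987 by edgeR's quasi-likelihood test with Benjamini-Hochberg adjustment). This was the estimate nearest to 0 of the 9, and its interval leaves room for KO levels of 0.723 to 1.34 times those in Ctrl. With limma on FPKM the sign was positive (0.00 and 0.01 on the log2 scale). Of the 1674 exon bases of *Neurog3*, 273 overlap *Fam241b* on the opposite strand (447 to 653 counts), and since the strand setting of the counting is not given, reads there cannot be assigned to either gene.

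*Neurod1*, a helix-loop-helix factor switched on downstream of *Neurog3* (ENSMUSG00000034701, chr2:79452521-79456751, minus strand), had 4.39, 5.28, 3.66 and 5.39 CPM in Ctrl and 4.07, 3.14, 4.72 and 4.26 CPM in KO. Ctrl mice 2 and 4 were highest, KO mouse 2 was lowest, and the remaining 5 mice lay between them. The means of 4.68 ± 0.813 and 4.05 ± 0.661 CPM gave a log2 fold change of -0.21 (SE 0.20, interval -0.65 to 0.23, adjusted p = 0.811, edgeR). Its exons share 201 of 2729 bases with *Cerkl* on the same strand, a gene with 0 to 11 counts. They share 154 with *Gm26755* on the opposite strand, which had 0 counts, so the limit of the strand setting holds here too.

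*Pax4* (ENSMUSG00000029706, chr6:28442334-28449353, minus strand) was counted 22, 37, 14 and 37 times in the Ctrl mice and 24, 11, 16 and 20 times in the KO mice. In CPM this was 1.02, 1.73, 0.684 and 1.55 in Ctrl and 1.01, 0.427, 0.692 and 0.665 in KO. Ctrl mice 2 and 4 stood above every other mouse, Ctrl mouse 3 lay among the KO mice, and Ctrl mouse 1 and KO mouse 1 were nearly equal. The means were 1.24 ± 0.480 and 0.698 ± 0.238 CPM, 0.560 times as high in KO (log2 fold change -0.84, SE 0.37, interval -1.67 to -0.01). The unadjusted p of edgeR's quasi-likelihood test was 0.0484 and the adjusted p 0.590, and a two-sided exact permutation test of the CPM gave p = 0.0857, where the smallest possible is 0.0286.

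The *Pax4* values rest on few reads. At a mean of 22.6 counts per mouse, counting alone gives a coefficient of variation of 21.02%, beside 38.6% observed over the Ctrl and 34.2% over the KO mice. The unadjusted p exceeded 0.05 under 10 of 18 alternative settings: it was 0.0854 with replicates paired as a block, 0.0616 with DESeq2 and, with 1 mouse left out, 0.0524 without Ctrl mouse 1, 0.137 without Ctrl mouse 2, 0.119 without Ctrl mouse 4, 0.121 without KO mouse 2, 0.0852 without KO mouse 3 and 0.0935 without KO mouse 4. Among same-numbered mice the KO over Ctrl log2 ratio was -0.01, -2.02, 0.02 and -1.22, so that replicates 2 and 4 carried the difference.

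*Insm1*, a zinc-finger factor of endocrine progenitors (ENSMUSG00000068154, chr2:146221921-146225020, plus strand), had the most reads of the 9, with 6.61, 9.30, 6.20 and 10.7 CPM in Ctrl and 5.92, 6.60, 8.87 and 8.61 CPM in KO. Ctrl mouse 4 was the highest and KO mouse 1 the lowest of the 8. The log2 fold change was -0.13 (SE 0.22, interval -0.62 to 0.37, adjusted p = 0.923, edgeR). *Nkx2-2*, a homeodomain factor of the same early phase (ENSMUSG00000027434, chr2:147177546-147194243, minus strand), varied widely among mice, with 5.45, 8.08, 3.91 and 4.26 CPM in Ctrl and 6.34, 4.23, 3.29 and 6.42 CPM in KO. The KO mice fell inside the Ctrl range except KO mouse 3, which was the lowest of all, and the log2 fold change was -0.10 (SE 0.30, interval -0.76 to 0.57, adjusted p = 0.964). Of its 2875 exon bases, 278 overlap *Nkx2-2os* on the opposite strand, a gene with 0 counts, and the strand setting of the counting limits these reads as well.

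**Figure D2:**
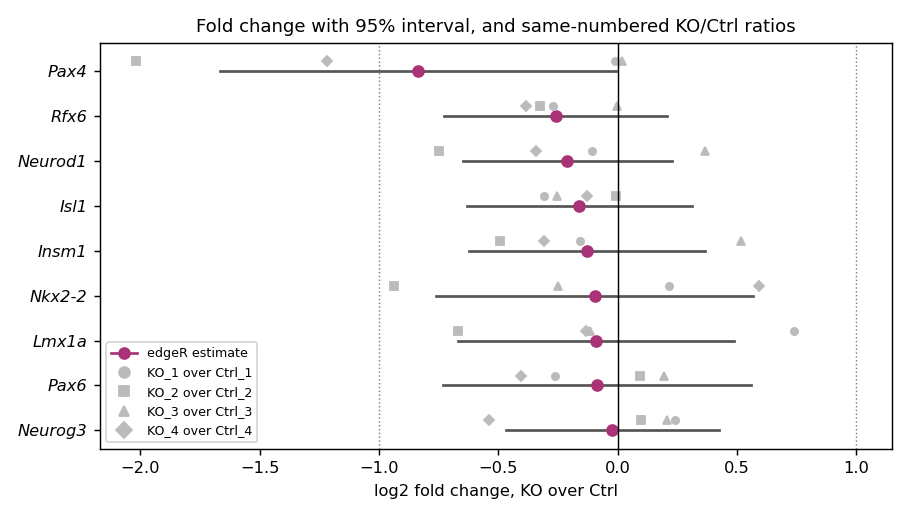
Log2 fold change of KO over Ctrl for each factor (x axis), with edgeR's estimate (purple point), its 95% confidence interval (bar) and the ratio of each pair of same-numbered mice (grey symbols). The dotted lines mark a 2-fold change in either direction; the *Pax4* interval alone crosses one, and its pair ratios run from -2.02 to 0.02.

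The 4 later factors had estimates from -0.26 to -0.09, none past the test, and the genotypes overlapped for each. *Rfx6*, a winged-helix factor of endocrine cells (ENSMUSG00000019900, chr10:51677756-51730432, plus strand), stood at 4.67, 7.15, 4.69 and 6.81 CPM in Ctrl and at 3.86, 5.70, 4.67 and 5.22 CPM in KO. KO was the lower of the same-numbered mice in 4 of 4 pairs, by 0.00 to 0.38 on the log2 scale. Its log2 fold change of -0.26 (SE 0.21, interval -0.73 to 0.21, adjusted p = 0.780 by edgeR) was the second most negative of the 9. *Isl1*, a LIM homeodomain factor (ENSMUSG00000042258, chr13:116298281-116309689, minus strand), was likewise the lower in KO in 4 of 4 pairs, with 2.91, 3.50, 3.61 and 4.22 CPM in Ctrl and 2.35, 3.49, 3.03 and 3.86 CPM in KO. Replicate 1 was lowest and replicate 4 highest in both genotypes, and the log2 fold change was -0.16 (SE 0.21, interval -0.63 to 0.31, adjusted p = 0.882). When same-numbered mice were paired as a block, the unadjusted p was 0.148 for *Rfx6* and 0.353 for *Isl1*.

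*Pax6*, a paired-box factor that activates hormone genes (ENSMUSG00000027168, chr2:105668900-105697364, plus strand), had 1.66, 2.62, 1.51 and 2.47 CPM in Ctrl and 1.39, 2.79, 1.73 and 1.86 CPM in KO. It was the only factor whose highest mouse was a KO mouse. *Lmx1a*, a LIM homeodomain factor of the serotonin-making enterochromaffin cells (ENSMUSG00000026686, chr1:167689237-167848741, plus strand), had 1.71, 3.64, 2.39 and 3.18 CPM in Ctrl and 2.86, 2.29, 2.21 and 2.89 CPM in KO. The Ctrl mice spanned the KO range on both sides. The log2 fold changes were -0.09 for *Pax6* (SE 0.29, interval -0.73 to 0.56, adjusted p = 0.965) and -0.09 for *Lmx1a* (SE 0.26, interval -0.67 to 0.49, adjusted p = 0.958).

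The genotype effect was also compared between the mice with *Xist* and those with *Ddx3y* reads. None of the 9 factors had an unadjusted interaction p under 0.05 in edgeR (0.286 for *Nkx2-2* to 0.909 for *Lmx1a*), against 3.82% of all tested genes. With 2 mice a cell this comparison is coarse: for *Nkx2-2*, where KO minus Ctrl was 0.25 in the former and -0.36 in the latter on the log2 scale, the difference of -0.61 had an SE of 0.53.

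Compared per length, the mean levels of the factors ran in a graded order, in which most neighbours could not be told apart. The mean FPKM (fragments scaled to exon length and library size) over all 8 mice was 3.17 ± 0.562 for *Neurog3*, 2.52 ± 0.554 for *Insm1*, 1.82 ± 0.559 for *Nkx2-2*, 1.59 ± 0.275 for *Neurod1* and 1.33 ± 0.281 for *Rfx6*. It was 0.847 ± 0.147 for *Isl1*, 0.775 ± 0.180 for *Lmx1a*, 0.668 ± 0.313 for *Pax4* and 0.170 ± 0.0459 for *Pax6*. Of the 8 neighbouring pairs, 2 differed in a two-sided exact sign-flip permutation test over the 8 mice after Benjamini-Hochberg adjustment: *Rfx6* above *Isl1* and *Pax4* above *Pax6*, each in 8 of 8 mice (p = 0.00781, the smallest possible, adjusted p = 0.0313). The other 6 pairs did not (adjusted p = 0.0625 to 0.359 in the same exact test).

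The length behind the deposited FPKM is that of all annotated exons of a gene together, 11694 bases for *Pax6* against 4427 in its longest coding transcript. Scaled to the longest coding transcript, *Pax6* rose to 0.450 and *Isl1* from 0.847 to 1.33, and the order of the 9 means stayed the same, with *Nkx2-2* at 2.46 close under *Insm1* at 2.52. The 2 pairs that then differed were *Neurog3* above *Insm1* and *Isl1* above *Lmx1a* (adjusted p = 0.0313 in the same exact test), and neither *Rfx6* above *Isl1* (adjusted p = 0.0625) nor *Pax4* above *Pax6* (adjusted p = 0.113) passed any longer. *Neurod1* at 1.59 and *Rfx6* at 1.54 were then nearly level (adjusted p = 0.688 in the same exact test). This scaling was added after the values had been seen.

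**Figure D3:**
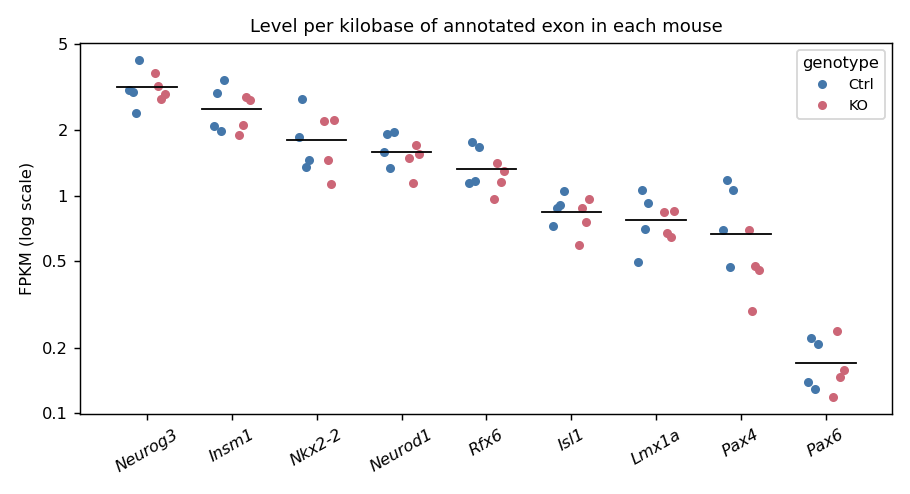
FPKM of each factor in each of the 8 mice (y axis, log scale), ordered by the mean over all mice (black line), with Ctrl in blue and KO in red. Levels run from 3.17 for *Neurog3* to 0.170 for *Pax6*, and the genotypes overlap in every gene.

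Within a mouse, the balance between early and later steps of the lineage did not differ detectably between genotypes. The log2 ratio of *Neurog3* to *Neurod1* (CPM + 0.5) was 0.23, -0.06, 0.13 and 0.38 in Ctrl and 0.55, 0.69, -0.01 and 0.19 in KO. The means of 0.17 ± 0.18 and 0.35 ± 0.32 (n = 4 each) overlapped (two-sided exact permutation p = 0.343, adjusted over 3 ratios 0.514). Set against *Chga*, the chromogranin of mature enteroendocrine cells, *Neurog3* stood at -3.74 ± 0.41 in Ctrl and -3.82 ± 0.30 in KO (exact p = 0.800, adjusted 0.800) and *Neurod1* at -3.91 ± 0.30 and -4.17 ± 0.18 (exact p = 0.286, adjusted 0.514).

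The factors shared a pattern over individual mice. Summed over the 9 factors, the level was 33.6, 46.4, 30.7 and 45.7 CPM in Ctrl mice 1 to 4 and 34.0, 34.1, 33.9 and 38.7 CPM in KO mice 1 to 4, or 0.00307% to 0.00463% of the TMM-scaled library total. Ctrl mice 2 and 4 stood apart above the rest, and Ctrl mice 1 and 3 were level with or below the KO mice. Ctrl mouse 2 was the highest of the 8 for 4 factors (*Pax4*, *Nkx2-2*, *Rfx6* and *Lmx1a*) and Ctrl mouse 4 for another 4 (*Neurog3*, *Neurod1*, *Insm1* and *Isl1*). Without Ctrl mouse 2 or without Ctrl mouse 4, 6 of the 9 estimates were still below 0, and the median moved from -0.13 to -0.06 and -0.07. It moved the other way without Ctrl mouse 1 (-0.24), Ctrl mouse 3 (-0.22) or KO mouse 4 (-0.23).

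**Figure D4:**
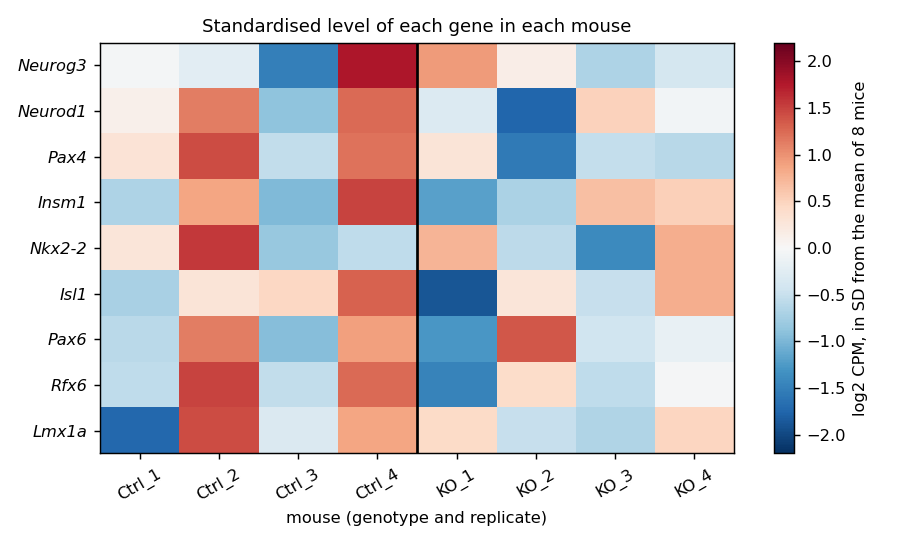
Level of each factor in each mouse as log2 CPM, in SD from the mean of that gene over the 8 mice (colour, red above and blue below), with the Ctrl mice left of the black line. The columns of Ctrl mice 2 and 4 are red for most genes (mean over the 9 factors 1.01 and 1.05), Ctrl mouse 3 is lowest at -0.68, and the KO mice lie between -0.41 and 0.15.

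After subtraction of each genotype's mean, 33 of the 36 pairs of factors correlated above 0 over the 8 mice, with a median Pearson r of 0.36, while 50% of all pairs of the 16109 tested genes did, with a median of 0.00. *Pax6* and *Rfx6* varied most alike (0.94), followed by *Neurod1* with *Pax4* (0.84) and with *Insm1* (0.80), while *Pax4* and *Isl1* had the lowest value (-0.23). The points share the same libraries and their depth, so these are descriptions of 8 mice. Among the early factors, *Nkx2-2* had an r of 0.55 with *Pax4*, 0.24 with *Neurod1* and 0.00 with *Insm1*, and *Neurog3* had 0.61 with *Pax4*, 0.38 with *Neurod1* and 0.30 with *Insm1*.

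Among 12512 other genes with a mean log2 CPM of at least 1, the 5 whose levels over the 8 mice were most like the mean standardised level of the 9 factors were *Avil* (Pearson r 0.94, Spearman rho 0.74), *Nrep* (0.94 and 0.88), *AC149090.1* (0.91 and 0.83), *Macc1* (0.90 and 0.95) and *Cdr2l* (0.89 and 0.83). In a ranking of so many genes over 8 mice, values of r this high can arise by chance. *Avil* encodes advillin, an actin-binding protein of the tuft cell, another rare cell of the epithelium. Its level was 10.3, 26.9, 12.6 and 22.8 CPM in Ctrl and 10.2, 11.7, 10.6 and 14.6 CPM in KO. It was highest in Ctrl mice 2 and 4, a pattern that the ranking selected for. The summed level of 5 tuft markers, *Avil* among them, was 41.2, 99.0, 51.0 and 77.4 CPM in Ctrl and 33.5, 48.7, 45.4 and 58.1 CPM in KO, with 4 of the 4 tested below 0 and none at an unadjusted p under 0.05 in edgeR. Paired as a block, *Dclk1* and *Avil* passed that level (log2 fold changes -0.63 and -0.53). The part of tuft cells in the level of the 9 factors was not tested.

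The products of the mature cells were high in the same Ctrl mice. *Chga* stood at 55.5, 107, 59.8 and 97.1 CPM in Ctrl and at 74.9, 77.4, 95.5 and 76.9 CPM in KO. The sum of 15 granin and granule genes was 259, 432, 294 and 431 CPM in Ctrl and 329, 321, 365 and 335 CPM in KO, and that of 12 hormone and amine genes 123, 228, 137 and 199 CPM against 133, 162, 163 and 147 CPM. For both sums the KO mice lay inside the Ctrl range. A sum can hide moves in opposite directions: of 11 tested hormone and amine genes, 4 estimates were above 0 and 7 below. The sum of 14 other transcription factors of the lineage, most of it from genes that are not restricted to these cells, was 176.6, 181, 175 and 185.9 CPM in Ctrl and 162.4, 163.1, 163.5 and 175 CPM in KO, so that 3 KO mice lay below every Ctrl mouse and KO mouse 4 was level with the lowest of them. Markers of mature enteroendocrine cells were thus detected in every library.

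Pancreatic endocrine cells also express many of these factors. Of 8 pancreatic markers none passed the filter, *Ins1* and *Ppy* had 0 counts in all mice, and the sum was 0.370 to 1.34 CPM in Ctrl and 0.378 to 1.36 CPM in KO.

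Genes around the 9 factors in the same pathway were counted in 5 lists of 58 genes, 53 of them tested, of which 3 had an unadjusted p under 0.05, all higher in KO, and none an adjusted p under 0.05. The corresponding shares over all genes are the 5.33% and 3.05% given above. Paired as a block, *Dll1* and *Nts* were higher and *Sox4*, *Gip* and *Sst* lower at an unadjusted p under 0.05, *Sct* (0.0679) and *Vgf* (0.0527) no longer passed, and no adjusted p was under 0.05 in edgeR. These are 2 higher and 3 lower of 53 genes, beside 7.14% and 4.13% of all genes under the block. *Nts*, the neurotensin gene, was named after its values were seen.

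Upstream of *Neurog3*, in the Notch-dependent choice of secretory fate, 1 of 8 genes had an unadjusted p under 0.05 and the median log2 fold change was 0.16, beside -0.13 for the 9 factors and -0.02 for all genes. That gene was *Dll1*, a Notch ligand of secretory progenitors, with 48.6 ± 3.11 CPM in Ctrl and 54.7 ± 1.30 CPM in KO (log2 fold change 0.17, SE 0.07, unadjusted p = 0.0288, adjusted p = 0.557 by edgeR), and its genotypes did not overlap. *Atoh1*, which commits cells to the secretory lineage, had a log2 fold change of 0.16 (SE 0.17), *Hes1*, the Notch target that represses *Atoh1*, 0.16 (SE 0.14) and the receptor gene *Notch1* -0.03 (SE 0.14).

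Of 14 other transcription factors of the lineage, none had an unadjusted p under 0.05 without the block (10 below 0, 4 above, median -0.11), and *Sox4* had one with it, as given above. The 4 with the highest FPKM, *Foxa1*, *Sox4*, *Tox3* and *Foxa2*, are not restricted to enteroendocrine cells, and their log2 fold changes were 0.01 (SE 0.10), -0.24 (SE 0.12), 0.00 (SE 0.12) and -0.06 (SE 0.15).

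Of 11 tested hormone and amine genes, *Sct*, which encodes secretin, had an unadjusted p under 0.05, with 8.50 ± 1.08 CPM in Ctrl and 10.9 ± 1.87 CPM in KO (log2 fold change 0.36, SE 0.16, unadjusted p = 0.0492, adjusted p = 0.593, edgeR). The median of the list was -0.13. The most abundant hormones were *Gip* of K cells (log2 fold change -0.50, SE 0.24), *Sst* of D cells (-0.37, SE 0.20) and *Gcg* of L cells (-0.04, SE 0.23), and none of the 3 had an unadjusted p under 0.05 without the block. With the block, *Gip* and *Sst* were lower and *Nts* higher at that level, and *Sct* no longer passed, as given above.

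Among 14 tested granin and granule genes, *Vgf*, a neuroendocrine secretory protein, had an unadjusted p under 0.05, from 2.43 ± 0.625 to 3.87 ± 1.30 CPM (log2 fold change 0.67, SE 0.28, unadjusted p = 0.0396, adjusted p = 0.576, edgeR). With the block *Vgf* did not pass, as given above. *Chgb* (-0.12, SE 0.18), *Chga* (0.02, SE 0.21), *Cpe* (-0.16, SE 0.22) and the prohormone convertase gene *Pcsk1* (0.17, SE 0.13) gave log2 fold changes smaller than 0.2 in size, and the median was -0.06. Of 6 tested sensing receptors and channels none had an unadjusted p under 0.05 (median -0.18). Their log2 fold changes were 0.37 (SE 0.29) for the fatty acid receptor gene *Ffar4*, -0.16 (SE 0.13) for the calcium channel gene *Cacna1a*, -0.55 (SE 0.31) for *Trpa1*, the irritant channel of enterochromaffin cells, and -0.19 (SE 0.32) for *Abcc8*, a subunit of a potassium channel.

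**Figure D5:**
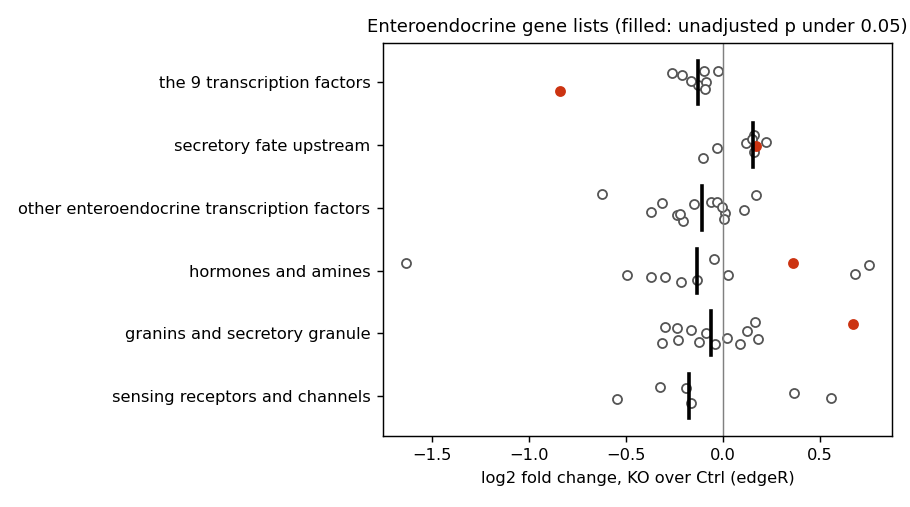
Log2 fold change of KO over Ctrl (x axis, edgeR) for each tested gene of the 9 factors and of 5 lists around them, with 1 point a gene, filled red where the unadjusted p was under 0.05, and the list's median as a black bar. Filled points are *Pax4* on the left of 0 and *Dll1*, *Sct* and *Vgf* on the right, 1 in each list that has any, and medians lie between -0.18 and 0.16.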

How the data were processed

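RNA of intestinal crypts from 4 KO and 4 Ctrl mice was sequenced, with genotype and replicate taken from the labels. The authors deposited, for each gene, raw counts without normalization and FPKM values, which equal the counts divided by exon length and library total times 1 factor per mouse (0.951 to 1.041, not explained in the sources used here). The submitters' processing notes list CASAVA, HISAT2 2.0.5 and featureCounts 1.5.0-p3, without their order or settings. The genome build is not given in the sources used here, but the deposited coordinates of all 9 genes equal those of GENCODE M21 (GRCm38). The authors' DESeq2 group means, fold changes and p-values, their list of differential genes and its summary hold their own findings and were not used.

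Counts were compared with edgeR 4.0.16 and limma 3.58.1 in R 4.3.3 (filterByExpr with a minimum count of 10, TMM factors, quasi-likelihood test with genotype as the only term, Benjamini-Hochberg adjustment over 16109 genes, threshold 0.05). The fit had 6 residual degrees of freedom and a common biological coefficient of variation of 0.237. CPM used TMM-scaled library sizes. Single values were compared by two-sided exact permutation over the 70 assignments of the mice, neighbouring FPKM levels by exact sign flips of log2(FPKM + 0.01) within mice. Likeness was ranked by Pearson's r to the mean standardised log2 CPM. Figures and sequence searches used Python 3.11.15 and matplotlib 3.10.9. The edgeR and permutation tests were checked on simulated data.

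The 9 genes, the lists and the markers were chosen with earlier results of these data known. Named are all 9 genes, from each list up to 4 genes with the highest FPKM and those with an unadjusted p under 0.05, and the 5 most alike genes; the list of enteric neuron and glia markers is not reported here.

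Replicate numbers are shared between genotypes and the controls are littermates, but no source says that a number marks a litter. After the mean of each genotype was subtracted, mice sharing a number correlated at 0.129, 0.501, 0.141 and 0.294 over all genes, and 0.0873, 0.481, 0.0921 and 0.252 over autosomal genes. With all 4 above 0.1 over all genes, though not over autosomal genes, the numbers were taken to pair the mice. Mice sharing a number also share their kind of reads, *Xist* or *Ddx3y*. Mice of different numbers were not correlated, so the check cannot tell a shared litter from a shared kind. The main tests are nevertheless unpaired, and calls that the block alters are given beside the result. Libraries of a genotype differed by more than counting error (chi-square 24.1 to 89.5 times its degrees of freedom), and n counts mice. Counting alone gives the 9 genes a coefficient of variation of 7.31% to 21.02%. Alternatives were RLE and upper-quartile factors, other filters, the replicate block, *Xist*/Y group as a covariate, robust edgeR, limma on log2(FPKM + 1) and log2(FPKM + 0.1), DESeq2 1.42.0, other pseudocounts and leaving out each mouse.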

Additional observations from a re-analysis of the deposited data

Results flagged for a closer look

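For the 9 factors and 3 ratios, 24 groups of 4 mice were examined for a mouse far from the others of its genotype by Dixon's ratio. None passed the 95% critical value, where chance gives about 1.2 of 24. No factor had a genotype effect that differed between the mice with *Xist* and those with *Ddx3y* reads at an unadjusted interaction p under 0.05.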

How the results depend on the processing

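Over 18 alternatives, no factor reached an adjusted p under 0.05 (lowest 0.317, *Pax4*), and 12 of 162 log2 fold changes changed sign. *Pax4* stayed negative, from -1.06 without KO mouse 1 to -0.31 with limma on log2(FPKM + 1), and the count of factors with an unadjusted p under 0.05 fell from 1 to 0 with the replicate block (mice treated as paired), with the *Xist*/Y covariate, with limma on log2(FPKM + 0.1) and with DESeq2. Under these 4 the unadjusted model p of *Pax4* was 0.0854, 0.0570, 0.0534 and 0.0616. The count was 0 to 1 when a mouse was left out. *Neurog3* turned to 0.004 with limma on log2(FPKM + 1) and 0.009 with log2(FPKM + 0.1). With a mouse left out, the ranges were -0.129 to 0.147 for *Neurog3*, -0.236 to 0.025 for *Insm1*, -0.231 to 0.160 for *Nkx2-2*, -0.312 to 0.045 for *Pax6* and -0.262 to 0.077 for *Lmx1a*. Without a change of sign they were -0.307 to -0.105 for *Neurod1*, -0.268 to -0.042 for *Isl1* and -0.353 to -0.148 for *Rfx6*. Of all genes, 1 had an adjusted p under 0.05, against 2 without a filter, 0 with at least 10 counts in every mouse, 0 with the replicate block, 4 with the *Xist*/Y covariate, 2 with limma at either pseudocount, 93 with DESeq2 and 0 to 4 with a mouse left out. With a mouse left out, genes with an unadjusted p under 0.05 numbered 846 (without KO mouse 3) to 2133 (without KO mouse 1), factors whose genotypes did not overlap 0 to 1 (*Pax4*, without Ctrl mouse 3), and neighbouring FPKM levels that differed 0 to 3, where 7 mice allow fewer sign flips. The tool, filter, block and covariate give no other value for the overlap of genotypes. The block changed no other call among the 9 factors. The causes of these changes were not tested. Counting error is highest for *Pax4*, at 21.02% of its level.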
